A study of Rattus norvegicus with 4 samples.

Results

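The colony-stimulating factors are secreted proteins that keep myeloid cells alive and drive their growth and maturation. Their receptors belong to separate families: CSF1R, KIT and FLT3 are receptor tyrosine kinases, whereas the GM-CSF, IL-3 and G-CSF receptors lack a kinase of their own and signal through JAK kinases and STAT factors. In the lung, GM-CSF is known for its part in the development of alveolar macrophages, and CSF1R signalling supports macrophages in most tissues. The set described here holds 10 genes, namely the 3 ligand genes Csf1, Csf2 and Csf3 and the 7 receptor genes Csf1r, Csf2ra, Csf2rb, Csf3r, Il3ra, Flt3 and Kit. They were chosen by name, and every non-control probe whose RefSeq accession belongs to one of them was taken, which gave 11 probes for 9 genes, of 21109 probes and 16581 genes with a symbol on the array. Flt3 had no such probe, so its signal was not analysed here and only its upstream sequence was searched.

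All 4 samples were NR8383 cells, a macrophage line started from the lung lavage of a normal rat, after 20 passages and 4 h with 2 µg/mL of the Fe2O3 particle NRCWE018. Each biological replicate was hybridised to 1 single-colour array, and the 4 arrays shared 1 slide. The study also had control cultures, which were not analysed here, so none of the values is a response to the particles. In RNA of whole cultures, fewer cells that express a gene and less of its RNA per cell cannot be told apart.

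The arrays had a 75th percentile of the processed signal of 1072, 984.3, 1082 and 756.5 in replicates 1 to 4, lowest in replicate 4, and the 308 negative-control spots of each array had median processed signals between 4.64 and 5.32. Markers of the labelled cell type were present. Every one of 7 measured macrophage markers (Cd68, Lyz2, Ptprc, Itgam, Fcgr2b, Mrc1 and Cd14) was above background on each of the 4 arrays. Of 5 mast cell markers, which would accompany Kit, only the histidine decarboxylase gene Hdc was above background on all arrays, and Cpa3, Tpsb2, Fcer1a and Ms4a2 on none. Of 5 measured granulocyte markers, which would accompany Csf3r, S100a8 and Camp were above background on all arrays, and Elane, S100a9 and Mmp8 on none. Of 4 fibroblast and 4 lung epithelium markers none was above background on any array, and of 3 endothelium markers Pecam1 and Cdh5 were above it on all. Of 5 dendritic cell markers Batf3 was above background on all arrays and Clec9a on 2, and of 3 blood progenitor markers Gata2 on 3. Which cells gave the signals of markers other than macrophage ones was not tested, nor was the part of these signals in the values below.

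Receptor genes for GM-CSF, IL-3 and M-CSF were above background in every exposed culture, and among the ligand genes only Csf3, which encodes G-CSF, was. Of the 9 measured genes, 5 were above background on all 4 arrays and 4 on none, so each gene gave the same answer on every array. The 5 comprised 1 of 3 ligands and 4 of 6 measured receptors. Of all named genes, 50.5% met the same criterion, so the share in this set was near that of the array as a whole. By probe, 5 of 11 were above background on all arrays, against 49.0% of all named probes. Csf1 and Kit, each with a pair of probes, had neither probe above background. For each of the 3 ligands, the ligand and its own receptor gave opposite answers. Csf1 and Csf2 were not above background while Csf1r, Csf2ra and Csf2rb were. Csf3 was above background while Csf3r was not. With 50.5% of all named genes above background, nothing is read from this split over 3 ligands, which was not tested.

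**Figure D1:**
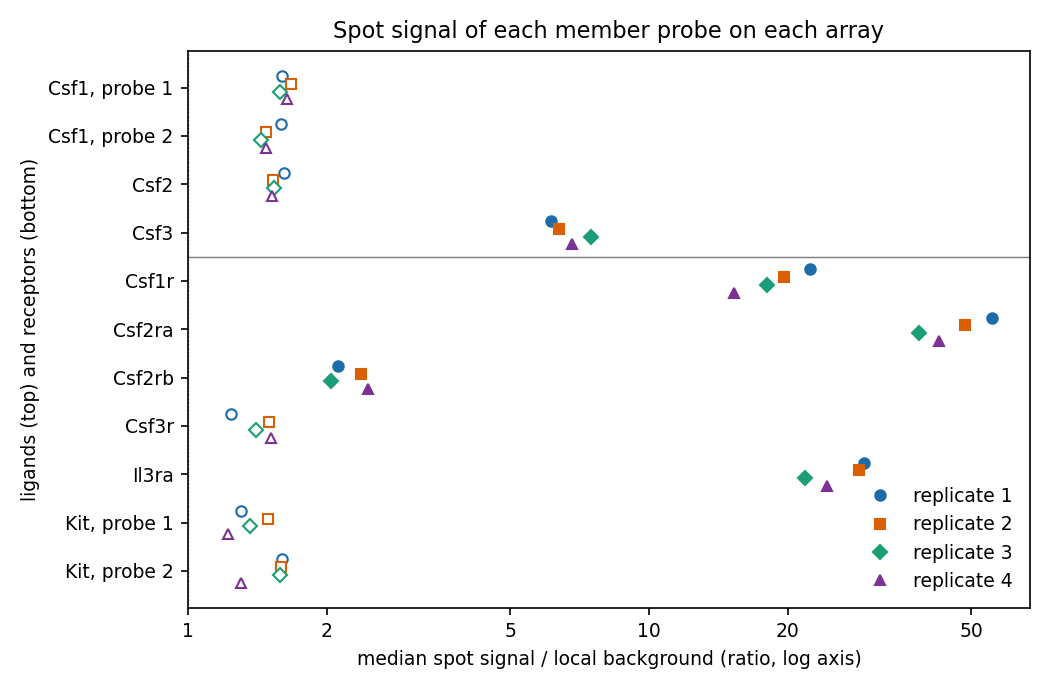
Median spot signal divided by the local background, a ratio on a log axis, for the 11 probes of 9 genes (rows, ligands above the line and receptors below it) on the 4 arrays (symbols). Filled symbols are probes well above background on all 4 arrays. The 6 probes with open symbols lay between 1.22 and 1.68, where the negative-control spots of the arrays had median ratios between 1.35 and 1.39. The position of one probe is not to be compared with that of another.

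Csf3 was the ligand gene with a clear signal. G-CSF is the growth factor of neutrophil production and is made by macrophages and stromal cells on inflammatory stimulation. Its single probe (A_64_P007508) had processed signals of 220.7, 237.4, 287.7 and 231.8 in replicates 1 to 4, with spots 6.14, 6.39, 7.47 and 6.82 times as bright as the local background. Of the 308 negative-control spots, 0, 0, 1 and 0 were as bright as this probe in replicates 1 to 4. The level used below is the log2 processed signal minus that of the 75th percentile on the same array. On this scale Csf3 was at -2.28, -2.05, -1.91 and -1.71, a mean of -1.99 ± 0.24 (SD, n = 4 arrays). Replicate 4 was highest and replicate 1 lowest, and these differed 1.49-fold. With 1 probe, hybridisation of another transcript to the Csf3 probe was not tested.

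Csf1 and Csf2 were not above background on any array. Csf1 encodes M-CSF, the survival factor of most macrophages, and Csf2 encodes GM-CSF, which alveolar macrophages usually receive from the alveolar epithelium. The first Csf1 probe (A_42_P695042) had processed signals of 4.90, 4.32, 4.56 and 5.19 in replicates 1 to 4, and the second (A_44_P1103077) 6.61, 5.01, 5.44 and 6.72. The Csf2 probe (A_44_P247880) had 6.82, 4.54, 4.90 and 5.04. Of the 308 negative-control spots, 6, 180, 171 and 218 were at least as bright as the Csf2 probe in replicates 1 to 4. Only in replicate 1 were few of them as bright, and the brightest there had a processed signal of 53.2. For the second Csf1 probe these counts were 6, 66, 68 and 10, low in replicates 1 and 4, where the brightest negative control had 53.2 and 65.0. For the first Csf1 probe they were 245, 246, 243 and 155. A weaker mark, a signal that is positive and significant against background, was set for the second Csf1 probe on 2 arrays and for Csf2 on 1 array. A probe not above background gives no evidence that its gene was silent, only that its signal was not marked well above background.

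The receptor for M-CSF was the steadiest of the genes above background in this set. Csf1r encodes the receptor tyrosine kinase through which M-CSF and IL-34 act on macrophages. Its probe (A_44_P257582) had processed signals of 864.2, 799.8, 775.4 and 536.1 in replicates 1 to 4, between 15.3 and 22.4 times the local background. Relative to the 75th percentile the level was -0.31, -0.30, -0.48 and -0.50, so the low raw signal of replicate 4 went with the lower overall brightness of that array. The mean was -0.40 ± 0.11 (SD, n = 4), and the highest and lowest arrays differed 1.15-fold.

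Both chains of the GM-CSF receptor were above background, and so was the ligand-binding chain of the IL-3 receptor. Csf2ra encodes the chain that binds GM-CSF, and its probe (A_43_P18551) had processed signals of 2093, 1941, 1665 and 1719 in replicates 1 to 4. Its level was 0.97, 0.98, 0.62 and 1.18, a mean of 0.94 ± 0.23 (SD, n = 4), highest in replicate 4 and lowest in replicate 3. Il3ra encodes the chain that binds IL-3. Its probe (A_64_P116635) had processed signals of 1222, 1311, 944.5 and 979.1 and levels of 0.19, 0.41, -0.20 and 0.37, a mean of 0.19 ± 0.28 (SD, n = 4). Replicate 3 was again the lowest, and the Il3ra level in replicate 2, the highest, was 1.53-fold above it.

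Csf2rb, which encodes the signalling chain shared by the GM-CSF, IL-3 and IL-5 receptors, lay closest to its local background among the 5 calls. Its probe (A_44_P398210) had processed signals of 51.5, 59.8, 45.2 and 48.7 in replicates 1 to 4, with spots 2.12, 2.37, 2.04 and 2.46 times as bright as the local background. Of 308 negative-control spots, 1, 0, 2 and 1 reached that signal. The call was made on each of the 4 arrays. The level was -4.38, -4.04, -4.58 and -3.96, a mean of -4.24 ± 0.29 (SD, n = 4). Levels of different probes cannot be ranked, so the dim Csf2rb spot does not show that less of this chain's RNA was present than of Csf2ra.

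Csf3r and Kit were not above background on any array. Csf3r encodes the G-CSF receptor of neutrophils and their precursors, and its probe (A_64_P018271) had processed signals of 4.78, 4.24, 4.46 and 5.55 in replicates 1 to 4. Kit encodes the receptor for stem cell factor, known for mast cells and blood progenitors. Its first probe (A_44_P1112681) had 5.06, 4.46, 4.81 and 5.15, and its second (A_64_P117011) 5.31, 4.59, 7.19 and 4.92, with the weaker positive and significant mark on 1 array. Of the 308 negative-control spots, 157, 170, 9 and 257 were at least as bright as the second Kit probe in replicates 1 to 4. The count was low in replicate 3 alone, where the brightest negative control had 307. For the first Kit probe these counts were 209, 203, 191 and 166, and for the Csf3r probe 265, 264, 265 and 72. The 6 member probes not above background had processed signals between 4.24 and 7.19 over all arrays.

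**Figure D2:**
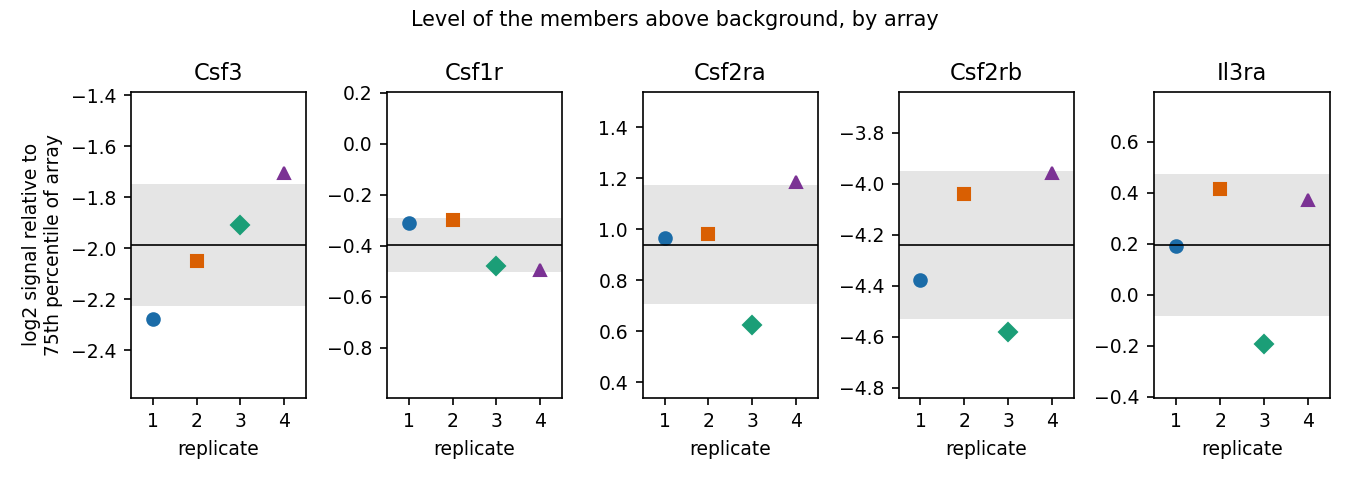
Level of the 5 genes above background, as log2 processed signal minus the 75th percentile of its array (vertical axis, each panel spanning the same width around its own mean), in replicates 1 to 4. Lines are means and grey bands 1 SD over 4 arrays; Csf1r had the narrowest band (0.11), and Csf2ra, Csf2rb and Il3ra were lowest in replicate 3.

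The spread between the 4 cultures lay from 0.56 to 1.55 times the spread usual for genes of like level. The SD over arrays was 0.24 for Csf3, 0.11 for Csf1r, 0.23 for Csf2ra, 0.29 for Csf2rb and 0.28 for Il3ra, where the trend fitted over all 8376 genes above background gave 0.22, 0.19, 0.17, 0.28 and 0.18 at their levels. Il3ra stood highest above its trend, 1.55 times, and Csf1r lowest, at 0.56 times. An upper-tail F test set each variance against that trend, which limma fitted, with Benjamini-Hochberg adjustment over the 8376 genes. In this test 0 of the 5 passed, against 0.191% (16) of all genes tested. The number over all genes depended on the settings: it was 156 with normexp background correction, 25 with all spots kept, 10 with the trend fitted without robustness, 5 with 1 prior variance for all levels and 7 without replicate 2. The adjusted p of the F test lay between 0.987 for Il3ra and 0.997 for Csf1r. None of the 5 had an unadjusted p under 0.05, against 5.75% of all genes, and the lowest was 0.134 for Il3ra in the F test. The median SD was 0.24 in the 5 genes and 0.18 in all genes. With 4 arrays the precision is limited, and a gene given 5 times the usual SD in simulated data was called in 40% of cases by this test.

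**Figure D3:**
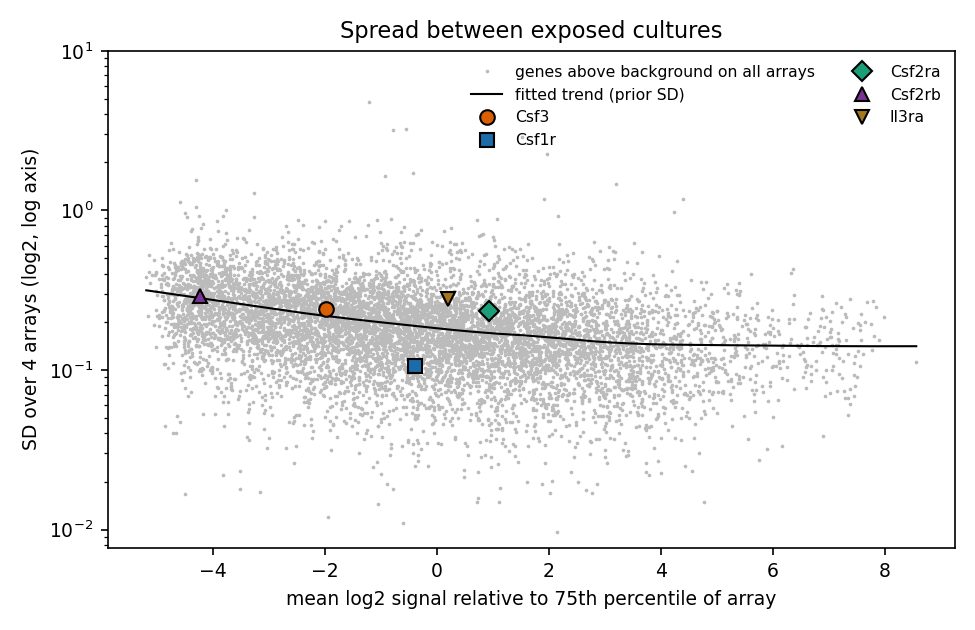
SD over the 4 arrays (log2, log axis) against mean level (log2 signal minus the 75th percentile of the array) for the 8376 genes above background on all arrays (grey), with the fitted trend (line). Coloured symbols mark the 5 genes of the set, which lie from 0.56 to 1.55 times the trend.

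The 3 chains of the GM-CSF and IL-3 receptors were all lowest in replicate 3. Their deviations from their own means in that culture were -0.32 for Csf2ra, -0.34 for Csf2rb and -0.39 for Il3ra on the log2 scale. They were lowest there also with normexp background correction, quantile normalisation, cyclic loess and the percentile over probes above background. With normexp, though, Csf2rb was nearly as low in replicate 1 (-0.218) as in replicate 3 (-0.223). Csf1r was lowest in replicate 4 (-0.10), though in replicate 3 with normexp, and Csf3 was lowest in replicate 1 (-0.29). Among all tested genes 34.4% were lowest in replicate 3, the largest share of any array. In replicate 4 the deviations were 0.25 for Csf2ra, 0.28 for Csf2rb, 0.18 for Il3ra and 0.28 for Csf3, and replicate 4 was the highest array for 3 of the 5 genes, against 36.3% of all genes; with normexp it was the highest for all 5. The mean deviation of the 5 genes was -0.06, 0.10, -0.21 and 0.18 in replicates 1 to 4. Their median deviation was -0.006, 0.097, -0.316 and 0.246, and the median deviation of all genes was -0.02, 0.01, -0.03 and 0.07. Replicate 4 was the array of lowest overall signal, and its part in these deviations was not tested. A difference between cultures cannot be told apart from one between positions on the slide.

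**Figure D4:**
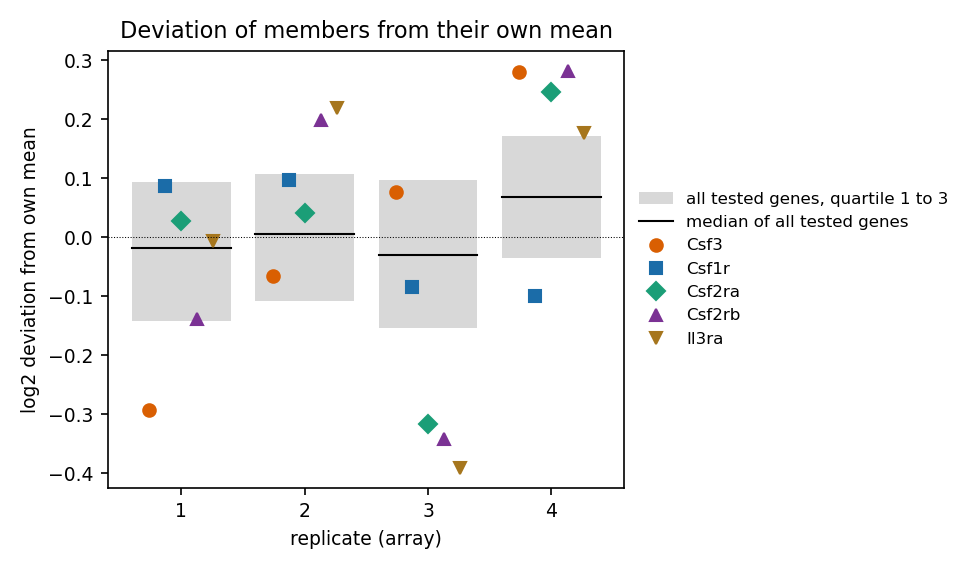
Log2 deviation of each of the 5 genes above background from its own mean (symbols) in replicates 1 to 4, with the quartile range (grey) and median (line) of all 8376 tested genes. In replicate 3 Csf2ra, Csf2rb and Il3ra lay between -0.39 and -0.32, whereas Csf1r and Csf3 were at -0.08 and 0.08.

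The sequence upstream of these genes was examined for motifs of the myeloid factor PU.1 and of inducible cytokine promoters, because PU.1 is known to act on myeloid receptor genes and the Csf2 promoter is a textbook inducible one. RefSeq windows of 250 bases before the gene start (GRCr8) were found for 7 of the 10 genes; Csf1, Csf3 and Csf2rb had none in the table. The PU.1 core GAGGAA, searched on both strands, was present in 4 of the 7 windows, those of Csf1r, Csf2ra, Csf3r and Csf2, and in 23.2% of 27457 windows of the same length. Csf1r held it at 2 places. Of the 4 genes with a match, Csf1r and Csf2ra were above background on all arrays, and Csf3r and Csf2 on none. The stretches around the matches outside Csf2 follow, 5′ to 3′ on the gene's strand with the PU.1 core in capitals, which reads TTCCTC where it lies on the opposite strand.
Csf1r, plus strand, chr18:56834138-56834167: agattctgcctcTTCCTCtggtgtgtgtgt
Csf1r, plus strand, chr18:56834272-56834301: gacaagaacgtgTTCCTCtgttcccatccc
Csf2ra, minus strand, chr14:118141-118170: caacccaaagatGAGGAAgtgggagcaagg
Csf3r, plus strand, chr5:143583048-143583077: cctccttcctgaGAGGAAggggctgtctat

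The stretches of Csf1r and Csf2ra overlap the span that the RefSeq table gives for these genes, and the promoter table takes 1 start per gene. The Csf2 probe was not above background, and the Csf2 window is shown because it held all 4 motifs searched. The motifs were chosen partly from what is known of the Csf2 promoter, so nothing is read from their joint presence. The Csf2 window held ATTCCAC, the end of the CK-1 element known as a site of inducible factors in the GM-CSF promoter. This motif is in 685 of 27457 windows (2.49%) and, of the 7 windows, also in that of Flt3. The Csf2 window also held 1 match each of the RUNX core TGTGGT (14.1% of windows) and a TATA box, searched as TATANAA (11.5% of windows). It had 1 match of the PU.1 core, on the opposite strand. Each motif was searched on both strands, and the matches did not overlap. The other windows held no match of the RUNX or TATA motif. A match is a description of the letters and no measure of binding. The stretch with all 4 motifs in capitals follows.
Csf2, minus strand, chr10:38889724-38889823: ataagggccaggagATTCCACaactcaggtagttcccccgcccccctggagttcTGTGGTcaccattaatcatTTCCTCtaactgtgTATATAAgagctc

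Genes that carry the signal of these receptors were above background almost throughout. Of 16 kinases and adaptors, 15 were above background on all 4 arrays, with Jak1 at 2.62 ± 0.21, Jak2, the kinase bound to Csf2rb, at -2.42 ± 0.21 and Tyk2 at -0.97 ± 0.19 (SD, n = 4 each). The others included Lyn, Fes, Grb2, Shc1, Gab2, Sos1, Pik3cd, Pik3r1, Ptpn11, Tyrobp and Plcg2, and Src was above background on none. All 8 signal carriers were above background, including Stat5a, which transmits GM-CSF and IL-3 signals, at 2.83 ± 0.20, Stat5b, Akt1 and Mapk3. Stat3, the main carrier of G-CSF signals, was at 1.26, 0.65, 1.19 and 2.08 in replicates 1 to 4. In limma's test of its spread the unadjusted p was 0.00142 and the adjusted p 0.211, so it did not pass.

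Negative regulators were above background in part. Of 8 measured, 6 were above background on every array. They were Cish, a STAT5-induced inhibitor, at -0.96 ± 0.32 (SD, n = 4), Socs3, Cblb, the phosphatase genes Ptpn6 and Inpp5d, and Adam17, whose protease sheds CSF1R from the cell surface. The inhibitor gene Socs1 was above background on 1 array, with levels of -3.52, -5.65, -6.18 and -5.27 in replicates 1 to 4, and Socs2 on none (-7.49 ± 0.18, SD, n = 4). All 8 genes known as targets of these receptors' signals were above background, with the kinase gene Pim1 at -4.08 ± 0.17, Myc at 1.37 ± 0.21 and Ccnd1 at 1.94 ± 0.10 (SD, n = 4 each), and also Bcl2l1, Mcl1, Id1, Osm and Pparg. Each of these targets also responds to other signals.

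Transcription factors known to act on the receptor genes were above background in 5 of 8 cases. Spi1, which encodes PU.1, was at 0.88 ± 0.14, and Cebpb at 5.49, 4.83, 5.08 and 5.40 in replicates 1 to 4, while Cebpa was above background on none (-7.20 ± 0.40, SD, n = 4). Runx1, Ets2 and Jun were above background on all arrays, and Irf8 and Fos on 2 arrays each. Among the other ligands of these receptors, Flt3lg, the ligand of FLT3, was above background on all arrays and Il34, the alternative ligand of CSF1R, on 3, at -5.21 ± 0.32. Il3 (-7.65 ± 0.30), Il5 (-6.94 ± 0.20) and Kitlg were above background on none (SD, n = 4 each). Of 4 measured related receptors, the erythropoietin receptor gene Epor was above background on all arrays, and Il5ra (-7.65 ± 0.27), Pdgfra (-7.61 ± 0.28) and Pdgfrb (-7.65 ± 0.37) on none. Levels of genes above background on no array, here and for Socs2, lay near the floor of the scale. The first Csf1 probe, with a mean processed signal of 4.74, had a mean level of -7.67. The SD of such a level is no measure of spread between cultures. Over these 7 lists together, 44 of 57 measured genes were above background on all arrays (77.2%), against 50.5% of all named genes. Of these, 0 passed the F test of excess spread, whose lowest adjusted p was 0.211, and 2 had an unadjusted p under 0.05. These lists were drawn up with earlier results of these data known, so nothing about the pathway is read from their share.

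**Figure D5:**
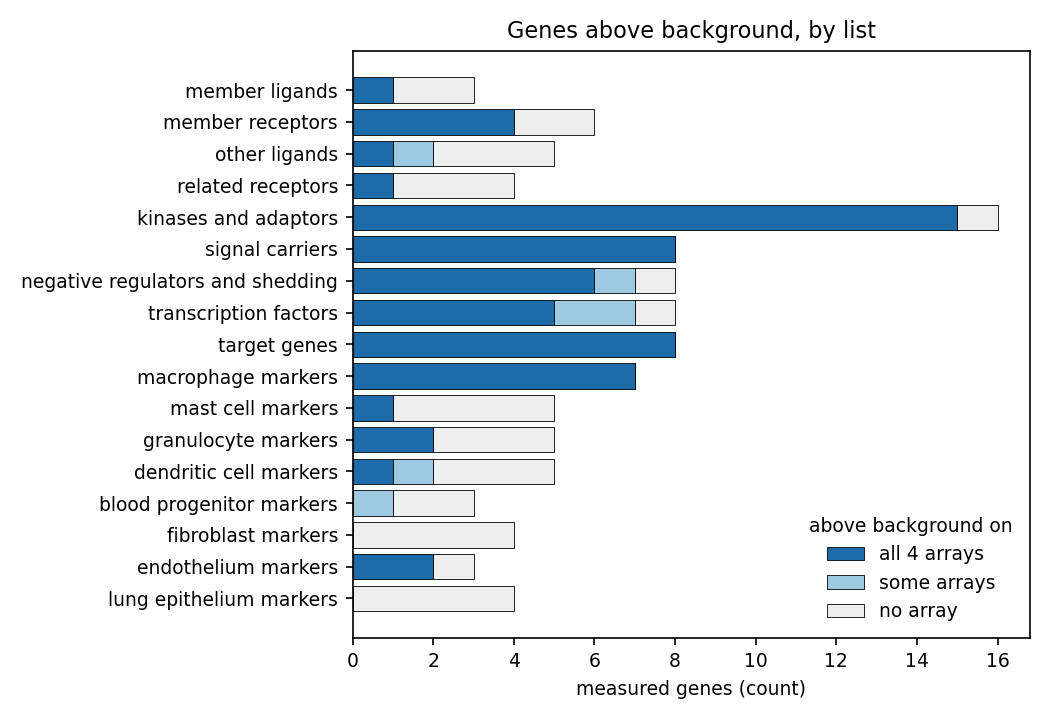
Number of measured genes (horizontal axis) above background on each of the 4 arrays, on only some, or on no array, for the ligands and receptors of the set, the 7 lists of related genes and the 8 lists of cell type markers. Of the set, 1 of 3 ligands and 4 of 6 receptors were above background on all arrays, where 50.5% of all named genes were. The lists ranged widely, from all 8 signal carriers, all 8 target genes and all 7 macrophage markers to 1 of 5 other ligands and no fibroblast marker. They were drawn up with earlier results of these data known, so nothing is read from their shares.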

How the data were processed

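Cy3-labelled cRNA of 4 exposed NR8383 cultures was measured on Agilent one-colour arrays, per the labels' protocols. The authors obtained the intensity of each spot with Feature Extraction (Agilent, version 11.0.1.1, according to the submitters' processing notes). Per the file headers, the deposited processed intensity was background-subtracted and detrended within each array. The sources used here do not state how arrays were normalized to each other.

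Control spots were left out, and so were outlier-marked spots unless a probe had no other; no member spot was marked. Each array's 75th percentile was subtracted on the log2 scale, and repeat spots were averaged. A probe was above background on an array where most of its spots were marked well above it. Accessions were matched without version to RefSeq genes (GRCr8, for names and promoter sequences). The probe marked on most arrays stood for its gene, ties going to the highest mean. The test of excess spread used R 4.3.3, with the prior variance from limma 3.58.1 (squeezeVar with a robust trend). An upper-tail F test of each variance against that prior was then computed outside limma. The largest prior degrees of freedom, 9.16, were used for every gene, also where the robust fit gave fewer. On simulated data with the levels of 8376 genes, genes given 10 times the SD were called in 88% of cases. Named genes were all members and the first 3 measured entries of each list with values, other entries by name; some list entries are counted but not reported here. The members and lists were chosen with earlier results of these data known. No likeness between genes over 4 arrays was computed. Groups and replicate numbers came from the sample titles. The number of arrays limits the precision. The closing section gives the alternatives tried.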

Additional observations from a re-analysis of the deposited data

How the results depend on the processing

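The number of genes of the set above background stayed at 5 of 9 with the positive and significant mark required on all 4 arrays, and that of probes at 5 of 11. That mark was set on fewer arrays for the second Csf1 probe, the Csf2 probe and the second Kit probe. Counts with 1 array sufficing, with all spots kept and without each replicate in turn could not differ. Every member probe was above background on all 4 arrays or on none, and no member spot was marked as an outlier. No gene of the set passed the test of excess spread under any of 14 alternatives. The adjusted p of the 5 genes in that F test ranged from 0.928 to 0.998 over all settings. Over all genes the number past that test was 16, and it was 156 with normexp background correction, 25 with all spots kept, 5 with 1 prior variance for all levels, 10 with the trend fitted without robustness, and between 7 (without replicate 2) and 22 (without replicate 4) when 1 replicate was left out; the cause was not tested. The mean deviation of the 5 genes stayed between -0.23 and -0.15 in replicate 3 and between 0.12 and 0.28 in replicate 4 under normexp, quantile, cyclic loess and the percentile over probes above background. That percentile shifted every level down, as Csf3 to -3.23, and normexp raised Csf2rb to -3.21. No paired analysis was possible because there was 1 group. Detection rested on 1 probe for 7 of the 9 genes.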
